A study of Homo sapiens with 10 samples.

Results

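The fibroblast growth factor (FGF) ligands and receptors described here are 10 genes: the ligand genes FGF2, FGF4, FGF8, FGF13 and FGF19, the receptor genes FGFR1, FGFR2, FGFR3 and FGFR4, and the receptor-like gene FGFRL1. They were taken from the table of gene counts as the Ensembl identifiers that carry these symbols, and make up 10 of its 55841 identifiers. All 10 were among the 23552 genes with enough counts to be tested. RNA from a human embryonic stem cell line was sequenced in 10 libraries. The labels name the line HES9 and the study's text names it WA09, which was not resolved here. The cells were grown without feeders on Matrigel in mTeSR1, a defined medium supplied with recombinant FGF2. The general population (5 libraries) was not sorted. The HHH population (5 libraries) was sorted for high surface levels of EPCAM, GCTM2 and CD9, so that the general population also contained cells of the sorted kind. The labels give 2 batches. Batch 1 held 2 general and 2 HHH libraries and batch 2 held 3 of each. The study also names inhibitors of protein kinase C, but no label assigns them to a library. No genetic change is given for either population, and nothing states that the libraries came from separate cultures, so the p-values measure only the spread between these libraries, which may be technical.

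FGF ligands are secreted signals that bind receptor tyrosine kinases at the cell surface together with heparan sulfate. Bound receptors signal through adaptors, RAS and the ERK kinases, which switch on target genes, among them inhibitors that dampen the same pathway. In human pluripotent stem cells FGF signalling supports the undifferentiated state, and FGF2 is a standard component of their media.

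Library totals ran from 50728201 to 78503395 counts in general and from 47242595 to 55796357 counts in HHH, with the highest 2 totals in the general libraries of batch 1. Levels are given as CPM, the counts scaled to a common library size, after scaling by edgeR's trimmed mean of M-values (TMM). A floor of 3 counts corresponded to 0.0460 to 0.0687 CPM, which covers counting error only. Small RNA genes took 2.71 to 4.97% of the counts in batch 1 and 0.418 to 0.727% in batch 2. All 8 markers of pluripotent cells fixed for the check, POU5F1 and NANOG among them, averaged at least 1 CPM. Of them NANOG was higher in HHH (log2 fold change 0.44, edgeR adjusted p = 0.00572) and SOX2 lower (-0.26, adjusted p = 0.0375, or 0.0773 with the replicate number as a block). EPCAM, one of the sorted antigens, was higher in HHH (148 against 196 CPM, adjusted p = 0.00645). CD9, another of them, averaged 71.3 CPM in general and 84.0 CPM in HHH (adjusted p = 0.195, or 0.0186 with the block).

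Of the 10 FGF genes, 6 differed between HHH and general: FGF13 and FGF19 were higher in HHH, and FGF2, FGFR1, FGFR2 and FGFR3 were lower. A gene passed if its adjusted p was under 0.05 in edgeR's quasi-likelihood test, with the batch as a term and Benjamini-Hochberg adjustment over all tested genes. Over all tested genes 5.83% passed, 1.94% as higher and 3.89% as lower in HHH. The 10 genes and the gene lists below were chosen with earlier results of these data known, so their counts give no separate support. The median log2 fold change was 0.18 over the 5 ligands and -0.47 over the 5 receptor genes, beside 0.016 over all tested genes. The ligand median is the value of FGF8, a gene close to the detection floor, and the ligands moved in both directions. With a change of at least 1.5-fold also required, 1 of the 10 (FGFR3) passed, against 2.98% of all genes, and FGF13 lay just under that limit at 1.496-fold. Because RNA was taken from whole populations, fewer cells that express a gene and less of its RNA per cell cannot be told apart.

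**Figure D1:**
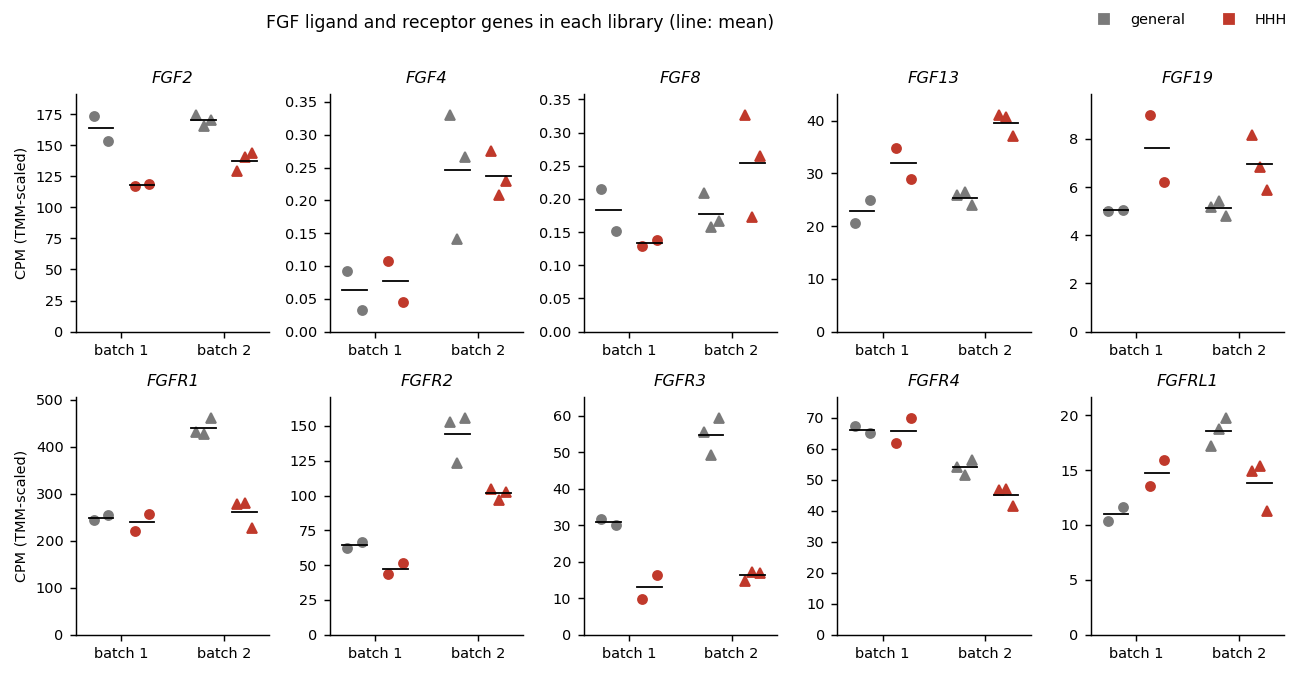
Level of each FGF ligand and receptor gene in each library, in CPM after TMM scaling on a linear axis that starts at 0. Grey symbols are general and red symbols HHH libraries, circles batch 1 and triangles batch 2, and the line is the mean of the libraries of 1 population and batch. FGFR3 shows the widest separation, with general libraries at 29.9 CPM or above and HHH libraries at 17.3 CPM or below.

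FGF2 (ENSG00000138685), the ligand that the culture medium also supplies, is on chromosome 4 (4:122826682-122898236, plus strand, GRCh38). Its level was 174 and 154 CPM in the general libraries of batch 1, and 118 and 119 CPM in the HHH libraries. In batch 2 it was 174, 165 and 171 CPM in general and 129, 140 and 144 CPM in HHH. All 5 HHH libraries lay below all 5 general libraries. The general mean was 168 ± 8.47 CPM and the HHH mean 130 ± 11.97 CPM (SD, n = 5), which put HHH at 77.4% of general (log2 fold change -0.37 ± 0.070 SE, edgeR adjusted p = 0.00527). Batch 1 alone gave -0.48 ± 0.11, and batch 2 alone -0.31 ± 0.083. Of the exonic bases of FGF2, 11.8% overlap exons of NUDT6 on the opposite strand. The library kit is not stated to keep strand, so reads from that stretch cannot be assigned to either gene.

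FGF13 (ENSG00000129682; X:138614727-139222777, minus strand) encodes a member of the FGF homologous factors, which stay inside the cell and bind voltage-gated sodium channels. In batch 1 it measured 20.6 and 25.0 CPM in general and 34.9 and 29.0 CPM in HHH. The general libraries of batch 2 measured 25.8, 26.4 and 23.9 CPM and the HHH libraries 41.0, 40.7 and 37.1 CPM. The lowest HHH library was above the highest general library. The means were 24.3 ± 2.31 and 36.6 ± 4.94 CPM, and the log2 fold change was 0.58 ± 0.082 (edgeR adjusted p = 5.96e-04). It had the same sign in batch 1 alone (0.48 ± 0.15) and in batch 2 alone (0.64 ± 0.082). With limma on the deposited log2 values FGF13 did not pass (adjusted p = 0.0810).

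FGF19 (ENSG00000162344; 11:69698238-69704022, minus strand) encodes a hormone-like ligand that acts mainly through FGFR4 with the coreceptor KLB. It was at 5.01 and 5.05 CPM in the general and 8.98 and 6.23 CPM in the HHH libraries of batch 1. Batch 2 gave 5.17, 5.42 and 4.79 CPM in general and 8.16, 6.85 and 5.87 CPM in HHH. The general libraries were close together and the HHH libraries spread wider, and all 5 HHH libraries were above all 5 general libraries. The means were 5.09 ± 0.234 and 7.22 ± 1.32 CPM, a log2 fold change of 0.50 ± 0.12 (edgeR adjusted p = 0.0233). Leaving out a single library raised the adjusted p above 0.05 in 6 of 10 fits. On the deposited log2 values it was 0.186 (limma). It was 0.0509 without general replicate 1 and 0.0643 without HHH replicate 2 of batch 1. It was 0.0530 and 0.0701 without general replicate 1 or 3 of batch 2, and 0.0823 and 0.0528 without HHH replicate 1 or 2 of batch 2.

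FGF4 and FGF8, secreted ligands known for their roles in the early embryo, were close to the detection floor. FGF4 (ENSG00000075388; 11:69771022-69775341, minus strand) had 6 and 2 counts in the general and 5 and 2 counts in the HHH libraries of batch 1. Batch 2 gave 19, 8 and 16 counts in general and 16, 12 and 13 in HHH. The populations overlapped in both batches, with a mean of 0.173 ± 0.123 CPM for general and 0.173 ± 0.0939 CPM for HHH (log2 fold change 0.014 ± 0.34, edgeR adjusted p = 0.988). FGF8 (ENSG00000107831; 10:101770109-101780371, minus strand) had 14 and 9 counts in general and 6 and 6 counts in HHH in batch 1. Batch 2 gave 12, 9 and 10 counts in general and 19, 10 and 15 counts in HHH. The HHH libraries were the lower ones in batch 1 and ranged above and among the general ones in batch 2. FGF8 averaged 0.180 ± 0.0296 and 0.206 ± 0.0863 CPM (log2 fold change 0.18 ± 0.30, adjusted p = 0.773). At counts this low the test could show only large differences in either gene.

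FGFR3 showed the largest change of the 10 genes. FGFR3 (ENSG00000068078; 4:1793293-1808872, plus strand) encodes a receptor tyrosine kinase best known for restraining growth of the long bones. It measured 31.8 and 29.9 CPM in the general and 9.69 and 16.5 CPM in the HHH libraries of batch 1. The values of batch 2 were 55.4, 49.2 and 59.3 CPM in general and 14.8, 17.3 and 17.02 CPM in HHH. The 5 HHH libraries lay far below the 5 general ones, with no value between 17.3 and 29.9 CPM. The mean fell from 45.1 ± 13.5 to 15.0 ± 3.14 CPM, and HHH was at 34.3% of general (log2 fold change -1.54 ± 0.13, edgeR adjusted p = 7.69e-06). Batch 1 alone gave -1.25 ± 0.22 (adjusted p = 0.05001, just above the threshold), and batch 2 alone -1.75 ± 0.098 (adjusted p = 3.14e-07).

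FGFR2 (ENSG00000066468; 10:121478332-121598458, minus strand) encodes a receptor with splice forms of differing ligand preference in epithelia and mesenchyme, which counts per gene cannot separate. Its levels were 62.4 and 66.5 CPM in the general and 43.5 and 51.2 CPM in the HHH libraries of batch 1. In batch 2 they were 153, 123 and 155 CPM in general and 105, 96.9 and 103 CPM in HHH. Within each batch every HHH library was below every general library, while the HHH libraries of batch 2 were above the general libraries of batch 1. The means were 112 ± 45.3 CPM (general) and 79.8 ± 29.9 CPM (HHH). With the batch in the model HHH was at 71.7% of general (log2 fold change -0.48 ± 0.080, edgeR adjusted p = 0.00222). Each batch fitted by itself gave a similar size, -0.45 ± 0.12 for batch 1 and -0.51 ± 0.099 for batch 2.

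FGFR1 (ENSG00000077782; 8:38400215-38468834, minus strand) encodes a main receptor for FGF2, and differed between populations mostly in batch 2. In batch 1 it was at 243 and 255 CPM in general and at 222 and 258 CPM in HHH. Batch 2 had it at 431, 427 and 461 CPM in general and at 278, 280 and 227 CPM in HHH. The populations overlapped in batch 1 and were far apart in batch 2, where the general libraries stood above all other libraries. The means were 363 ± 105 and 253 ± 27.6 CPM (log2 fold change -0.47 ± 0.12, edgeR adjusted p = 0.0328). Alone, batch 1 gave -0.061 ± 0.12 (adjusted p = 0.880) and batch 2 gave -0.76 ± 0.10 (adjusted p = 4.29e-04). The difference between those changes was -0.69 ± 0.16 on the log2 scale, with an adjusted p of 0.0649 for the interaction in edgeR and 0.00344 in DESeq2. With the trend with GC content removed from each library, the difference was -0.61 (edgeR adjusted p = 0.199). The pooled call was lost in 7 of the 10 fits without 1 library: its adjusted p was 0.0523 without HHH replicate 2 of batch 1, 0.0840, 0.0773 and 0.0856 without general replicate 1, 2 or 3 of batch 2, and 0.0950, 0.0951 and 0.0634 without HHH replicate 1, 2 or 3 of batch 2.

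FGFR4 (ENSG00000160867; 5:177086905-177098144, plus strand), the receptor through which FGF19 mainly acts, did not pass. It was at 67.2 and 65.2 CPM in general and 61.8 and 69.9 CPM in HHH in batch 1. Batch 2 gave 54.2, 51.6 and 56.5 CPM in general and 46.7, 46.98 and 41.5 CPM in HHH. HHH libraries lay on either side of the general ones in batch 1 and below all of them in batch 2. The means were 59.0 ± 6.90 and 53.4 ± 11.9 CPM, a log2 fold change of -0.16 ± 0.075 (edgeR adjusted p = 0.236). In batch 2 alone it was -0.27 ± 0.083 (adjusted p = 0.0485).

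FGFRL1 (ENSG00000127418; 4:1009936-1026898, plus strand) encodes a receptor-like protein that binds FGFs but lacks the kinase domain. It was at 10.3 and 11.6 CPM in general and 13.5 and 15.9 CPM in HHH in batch 1. Batch 2 gave 17.2, 18.7 and 19.7 CPM in general and 14.9, 15.3 and 11.2 CPM in HHH. Both HHH libraries of batch 1 were above the general ones, and all 3 HHH libraries of batch 2 were below them. The pooled log2 fold change was -0.090 ± 0.15 (edgeR adjusted p = 0.772), from 0.42 ± 0.16 in batch 1 alone (adjusted p = 0.323) and -0.43 ± 0.12 in batch 2 alone (adjusted p = 0.0300).

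**Figure D2:**
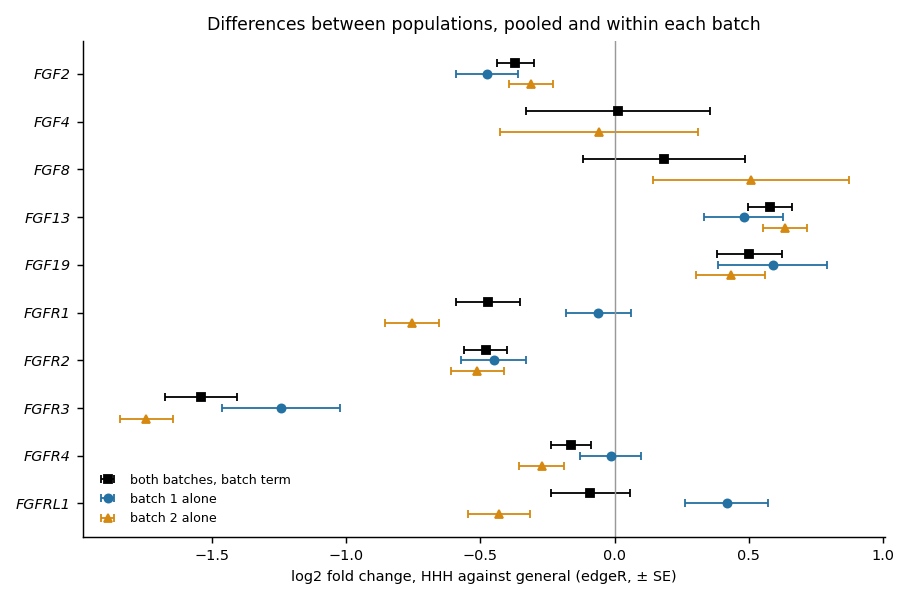
Log2 fold change of HHH against general for each gene from edgeR, with bars of ± 1 SE. Black squares are all 10 libraries with a batch term, blue circles batch 1 alone and orange triangles batch 2 alone, and FGF4 and FGF8 had too few counts to be tested in batch 1. FGF2, FGF13, FGF19, FGFR2 and FGFR3 kept their sign, whereas FGFRL1 was at 0.42 in batch 1 and -0.43 in batch 2.

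Within batches, the calls were uneven. In batch 1 alone, with 2 libraries a population, none of the 8 FGF genes tested passed in edgeR, against 0.573% of all genes, although 6 of them had an unadjusted p under 0.05. On the same libraries limma-voom passed 1 of the 8 and DESeq2 2 of the 8: FGFR3 by limma-voom (adjusted p = 0.0457), and FGF2 (0.0197) and FGFR3 (1.89e-06) by DESeq2. In batch 2 alone 8 of the 10 passed, 2 higher and 6 lower, against 13.2% of all genes. A test of whether the change differed between batches passed for 0 of the 10 in edgeR (0.777% of all genes; 3 of the 10 at an unadjusted p under 0.05), for 0 in limma-voom and for 2 in DESeq2, which were FGFR1 and FGFRL1. The shares of all genes for these tests are those of edgeR's adjusted p only. The counts at an unadjusted p or by the other tools therefore cannot be compared with them. Without any test, HHH was below general in every library of both batches for 3 of the 10 (FGF2, FGFR2 and FGFR3), against 5.42% of all genes. HHH was above general in every library of both batches for 2 of the 10 (FGF13 and FGF19), against 3.93%.

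The batches themselves differed for 6 of the 10 genes, beside 47.9% of all genes. FGFR2 was higher in batch 2 by 1.13 ± 0.085 on the log2 scale (edgeR adjusted p = 2.23e-07), a larger difference than its difference between populations. FGFR3 was higher by 0.58 (edgeR adjusted p = 0.00317) and FGFR1 by 0.47 (0.00687). FGF4 was higher by 1.76 (adjusted p = 0.00224). It had 2 to 6 counts in the libraries of batch 1 and 8 to 19 counts in those of batch 2. FGF4 had enough counts to be tested only through its level in batch 2, so its call gives no separate support. FGF13 was higher by 0.23 (adjusted p = 0.0327), a call that was lost in 6 of 10 fits without a single library: its adjusted p was 0.0955 without general replicate 1 and 0.124 without HHH replicate 3 of batch 1, 0.0560 and 0.0559 without general replicate 1 or 2 of batch 2, and 0.0726 and 0.0745 without HHH replicate 1 or 2 of batch 2. FGFR4 was lower in batch 2, with a log2 difference of -0.42 (adjusted p = 4.70e-04). FGF2, FGF8, FGF19 and FGFRL1 did not pass, although FGFRL1 did without HHH replicate 3 of batch 1 (adjusted p = 0.0154) or of batch 2 (0.0114). These differences depend on the scaling. With library sizes left unscaled FGF2 (0.47, adjusted p = 8.38e-05) and FGFRL1 (0.66, adjusted p = 0.00694) passed, FGF13 was at 0.57, and FGFR4 did not pass (-0.087, adjusted p = 0.477).

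**Figure D3:**
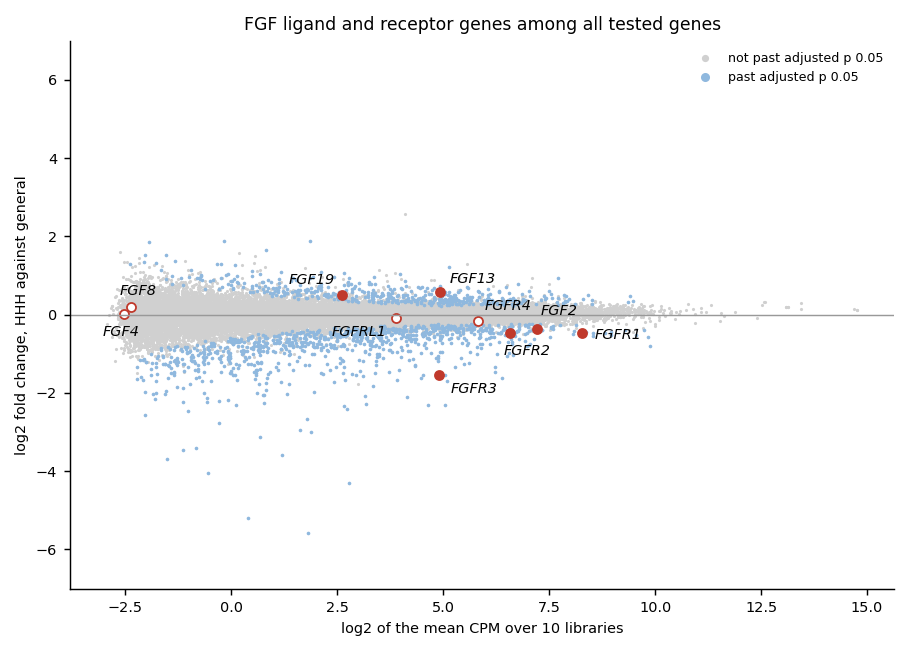
Each point is 1 of the 23552 tested genes, with the log2 of its mean CPM over 10 libraries on the horizontal axis and its log2 fold change, HHH against general, on the vertical axis. Blue points passed an adjusted p of 0.05 and grey points did not, and the 10 named genes are red, filled where they passed. FGFR3 at -1.54 stands apart from the other 9, which lie between -0.48 and 0.58.

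The promoter windows of the receptor genes that changed most clearly, and of FGFR4 and FGF13 beside them, are shown because these genes moved by different amounts or in different directions. Each window is RefSeq sequence (GRCh38.p14), on the strand of the gene, from 250 to 21 bases before the start of transcription. Capitals mark matches, on either strand, to the GC box GGGCGG, the CCAAT box CCAAT, the TATA box TATAAA, the ETS core CCGGAA or the octamer ATGCAAAT. These occur in 40.0, 30.7, 10.4, 12.5 and 1.57% of the 35116 such windows in the table. No matches overlap in the windows shown, and 6 of the 10 genes have an entry.
FGFR3, chr4:1793043-1793272, plus strand: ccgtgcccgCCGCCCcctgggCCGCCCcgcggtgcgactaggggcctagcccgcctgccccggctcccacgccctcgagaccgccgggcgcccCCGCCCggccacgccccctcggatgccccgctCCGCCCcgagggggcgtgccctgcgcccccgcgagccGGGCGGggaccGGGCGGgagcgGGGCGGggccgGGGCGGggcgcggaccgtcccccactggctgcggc
FGFR2, first of 5 windows, chr10:121598465-121598694, minus strand: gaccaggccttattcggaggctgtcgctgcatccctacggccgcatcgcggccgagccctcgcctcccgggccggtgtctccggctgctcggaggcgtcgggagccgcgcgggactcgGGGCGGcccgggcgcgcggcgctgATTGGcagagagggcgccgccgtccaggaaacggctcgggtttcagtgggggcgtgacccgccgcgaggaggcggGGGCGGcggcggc
FGFR4, first of 2 windows, chr5:177086665-177086894, plus strand: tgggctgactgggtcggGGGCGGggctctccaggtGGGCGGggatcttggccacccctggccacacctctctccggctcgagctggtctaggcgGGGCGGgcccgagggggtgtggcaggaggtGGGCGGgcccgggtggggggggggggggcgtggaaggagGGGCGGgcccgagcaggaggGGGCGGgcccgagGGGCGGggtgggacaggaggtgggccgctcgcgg
FGF13, first of 2 windows, chrX:139205044-139205273, minus strand: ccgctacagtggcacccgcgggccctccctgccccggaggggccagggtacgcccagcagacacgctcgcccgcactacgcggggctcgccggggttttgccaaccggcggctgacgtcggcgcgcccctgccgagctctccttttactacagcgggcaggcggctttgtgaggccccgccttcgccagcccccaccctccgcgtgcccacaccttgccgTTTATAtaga
The FGFR3 window is 87.0% G and C, with 99.85% of all windows below it (median 57.8%), and holds 8 GC boxes. The FGFR4 window is 79.6% G and C with 7 GC boxes, and the second FGFR4 window, not shown, is 58.7% with 0 GC boxes. Whether window content is linked to the changes between populations was not tested. The FGFR2 window (77.4%) holds 2 GC boxes and a single CCAAT box. The other FGFR2 windows, not shown, are 42.6 to 51.7% G and C with 0 or 1 GC box. The FGF13 window (71.3%) holds a single TATA box and no GC box. The second FGF13 window, not shown, is 37.0% with 0 TATA boxes. The windows of FGF2 (73.9%, 3 GC boxes) and FGFRL1 (67.8%, 4 GC boxes) are not shown either. A match describes letters and is not evidence of a bound factor.

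Levels can be set beside each other between genes only per length, so CPM were divided by the length of the merged exons (RPKM). Among the ligand genes FGF2 was highest in general at 24.6 ± 1.25 RPKM (SD, n = 5), followed by FGF19 at 2.79 ± 0.129 and FGF13 at 1.17 ± 0.111 RPKM. FGF8 at 0.125 ± 0.0205 and FGF4 at 0.0545 ± 0.0389 RPKM were lowest. In HHH the order was the same, with 19.1 ± 1.76, 3.96 ± 0.723 and 1.76 ± 0.239 RPKM for FGF2, FGF19 and FGF13. The order of FGF13 and FGF19 depends on the length used. With the lengths implied by the deposited values, FGF13 was at 6.38 RPKM in general and FGF19 at 2.05 RPKM.

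The receptor genes are ordered within batches, because their levels differed between batches. In the general libraries of batch 1 the order was FGFR1 (14.2 and 14.8 RPKM), FGFR4 (13.98 and 13.6), FGFR3 (6.56 and 6.18), FGFR2 (3.32 and 3.54) and FGFRL1 (2.38 and 2.68), with no overlap between neighbours. In those of batch 2 FGFR1 (24.8 to 26.8 RPKM) was followed by FGFR3 (10.1 to 12.2) and FGFR4 (10.7 to 11.7), which overlapped, and then by FGFR2 (6.56 to 8.27) and FGFRL1 (3.96 to 4.54). In HHH, FGFR1 and FGFR4 overlapped in batch 1 and FGFR1 was the higher in batch 2. In the HHH libraries of batch 1 FGFR3 (1.999 and 3.40 RPKM) overlapped both FGFR2 (2.31 and 2.72) and FGFRL1 (3.12 and 3.66). In those of batch 2 FGFR2 (5.15 to 5.58 RPKM) was above FGFR3 (3.05 to 3.56) and FGFRL1 (2.59 to 3.53), which overlapped. FGFR3 was thus above FGFR2 in all 5 general libraries and above it in 1 of the 5 HHH libraries. The place of FGFR2, whose merged exons (18813 bases) are longer than its longest transcript (6964 bases), depends on the length used. With implied lengths FGFR2 was at 14.7 RPKM in general, above FGFR4 (12.1) and FGFR3 (9.22), and at 10.5 RPKM in HHH, near FGFR4 (10.9) and above FGFR3 (3.07), as means over both batches, and FGFR3 was not above FGFR2 on that scale in either population. The overlap of FGFR1 and FGFR4 in the HHH libraries of batch 1 depends on the length as well. There FGFR1 was at 35.7 and 41.5 RPKM by the longest transcript and FGFR4 at 19.99 and 22.6 RPKM. By implied lengths FGFR1 was at 17.2 and 20.04 RPKM and FGFR4 at 12.6 and 14.3 RPKM.

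Of the summed RPKM of FGFR1 to FGFR4, FGFR3 made up 17.3 and 16.2% in the general libraries of batch 1 and 20.5, 19.4 and 20.7% in those of batch 2. In HHH it made up 6.65 and 9.53% in batch 1 and 8.84, 10.2 and 11.4% in batch 2. No HHH library reached the lowest general library. The share of FGFR4 was 36.8 and 35.6% in general and 42.8 and 40.8% in HHH in batch 1, and 19.9 to 20.5% in general and 28.0 to 28.1% in HHH in batch 2. It was higher in HHH within each batch, where the summed level was lower, and the level of FGFR4 did not pass. A share can rise because the other parts of the sum fall. The summed level was 38.0 and 38.1 RPKM in general and 30.1 and 35.6 RPKM in HHH in batch 1. It was 52.3 to 59.0 RPKM in general and 30.8 to 34.8 RPKM in HHH in batch 2. The shares have no test here, because they combine genes chosen for the description, and their size moved with the gene length used.

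**Figure D4:**
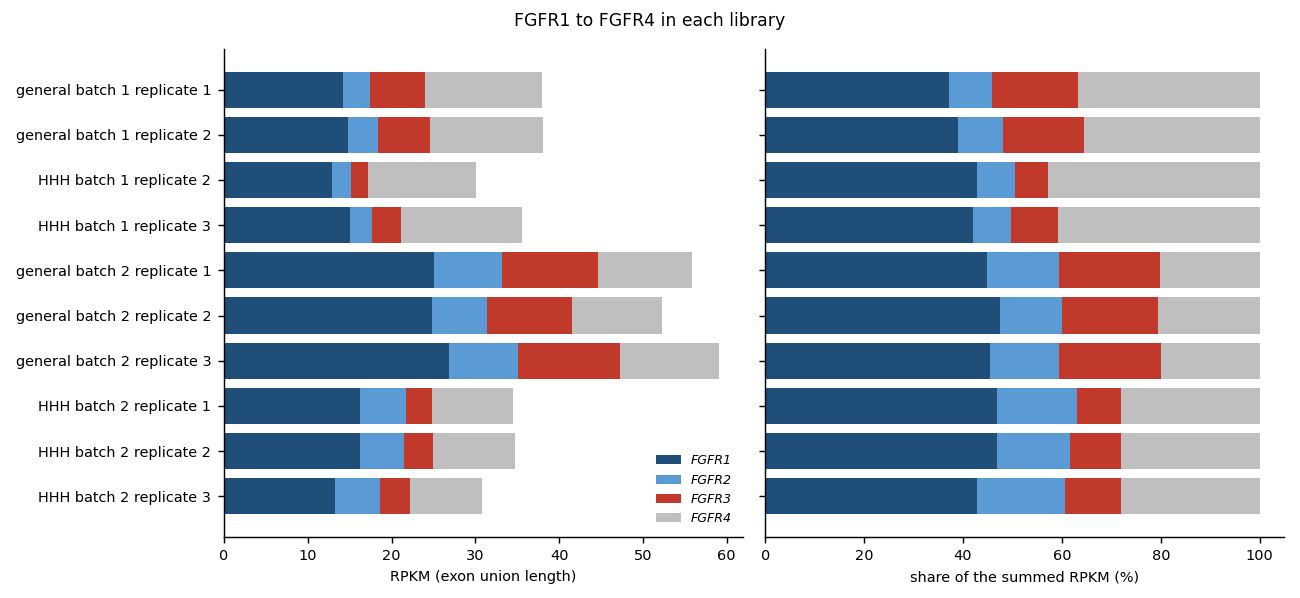
Left, the RPKM (merged exon length) of FGFR1 to FGFR4 stacked for each library. Right, the same as percent of their sum. The FGFR3 segment (red) makes up 16.2 to 20.7% in general and 6.65 to 11.4% in HHH libraries, and the bars of general in batch 2 are the longest.

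For each of the 6 genes that passed, the 3 genes with the most similar pattern over the 10 libraries were found among 17226 candidates, as the smallest root mean square (RMS) difference in log2 CPM centred within each batch. Nearest to FGF2 were PRICKLE1, CD55 and SERPINA5 (RMS 0.0488 to 0.0517). Nearest to FGF13 were SEPHS1, THY1 and CYTL1 (0.0695 to 0.0721), and nearest to FGF19 were PCED1B, GRM4 and ZSCAN2 (0.0925 to 0.0980). FGFR1 lay closest to NOTCH3, ADGRB2 and COL5A1 (0.0610 to 0.0656), and FGFR2 to TMPRSS2, NFATC4 and CAVIN4 (0.0487 to 0.0663). FGFR3 had no neighbour as close: SERPINB9, HES3 and SOX21-AS1 were at 0.148 to 0.171.

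The remaining FGF ligand genes were mostly low. Of 17 such genes 10 were tested, and 1 passed, beside 5.83% of all genes. FGF11, another FGF homologous factor, was lower in HHH (18.8 ± 8.05 against 15.3 ± 6.40 CPM, log2 fold change -0.30 ± 0.084, edgeR adjusted p = 0.0498). Its adjusted p was 0.0707 with the replicate block and above 0.05 in 8 of 10 fits when a single library was dropped. FGF12, of the same family, averaged 12.1 and 13.4 CPM (adjusted p = 0.333). FGF1 averaged 0.501 and 0.305 CPM (adjusted p = 0.110).

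Of 11 coreceptors, binding proteins and adaptors next to the receptors, 9 were tested, and 3 were lower and 0 higher in HHH, beside 3.89% and 1.94% of all genes (median log2 fold change -0.17). FGFBP3, which binds secreted FGFs, measured 215 and 148 CPM in general and 105 and 136 CPM in HHH in batch 1. In batch 2 it measured 129, 156 and 141 CPM in general and 80.1, 73.5 and 68.9 CPM in HHH. Every HHH library was below every general library of its batch (log2 fold change -0.80 ± 0.11, edgeR adjusted p = 6.99e-04). FLRT2 and FLRT3, membrane proteins of a family that includes binding partners of FGF receptors, also fell, from 6.59 to 3.68 CPM (log2 fold change -0.84, adjusted p = 7.66e-04) and from 2.11 to 0.921 CPM (-1.22, adjusted p = 8.52e-04). ANOS1, a secreted modulator of FGFR1, averaged 212 and 235 CPM and did not pass (adjusted p = 0.465). FRS2, the docking adaptor of the receptors, averaged 32.8 and 29.8 CPM (adjusted p = 0.293).

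Of 20 genes for heparan sulfate proteoglycans and the enzymes that build or trim their chains, 3 were lower, 1 was higher and 16 did not pass, where 3.89% of all genes were lower and 1.94% higher (median log2 fold change -0.076). GPC3, a membrane-anchored glypican, was at 115 and 85.8 CPM in general and 40.0 and 40.2 CPM in HHH in batch 1. Its batch 2 levels were 95.8, 120 and 116 CPM in general and 39.1, 40.4 and 50.8 CPM in HHH. The populations were far apart in both batches (log2 fold change -1.34 ± 0.10, edgeR adjusted p = 2.08e-06). GPC4, another glypican, fell from 379 ± 45.4 to 277 ± 10.3 CPM (adjusted p = 0.00212). The extracellular sulfatases, which remove sulfate from the chains, moved in opposite directions: SULF2 fell from 22.4 to 15.6 CPM (adjusted p = 9.40e-04) and SULF1 rose from 13.5 to 19.7 CPM (adjusted p = 0.0100). Of the chain-building enzymes NDST1 (log2 fold change -0.12) and EXT2 (-0.075) did not pass.

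None of the 18 adaptors, RAS proteins and kinases of the ERK cascade passed in edgeR, a count close to the 5.83% of all genes that passed. Their log2 fold changes lay between -0.17 and 0.17. At an unadjusted p under 0.05 there was 1, for which no share of all genes is given, and limma-voom and DESeq2 also passed 0 of the 18. NRAS averaged 202 and 220 CPM, and PTPN11, a phosphatase that helps activate RAS, 183 and 188 CPM.

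Of 16 feedback inhibitors and target genes of the pathway, 8 were higher and 1 was lower in HHH (median log2 fold change 0.31), where 1.94% of all genes were higher and 3.89% lower. The list was chosen with earlier results of these data known, so its count gives no separate support. The study had already named DUSP5, DUSP6 and SPRY2 of this list as higher in the sorted fraction. The count of higher genes was 7 to 9 when a single library was dropped. It was 3 in batch 1 alone (0.291% of all genes), 9 in batch 2 alone (5.13%), 4 on the deposited log2 values (0.234%) and 1 without a batch term (0.102%). ETV4, an ETS factor that FGF signalling induces, was at 50.02 and 52.8 CPM in general and 78.5 and 75.1 CPM in HHH in batch 1. Its batch 2 levels were 44.05, 42.02 and 41.6 CPM in general and 69.5, 66.6 and 55.95 CPM in HHH. All 5 HHH libraries were above all 5 general ones (log2 fold change 0.58 ± 0.071, edgeR adjusted p = 1.74e-04). The related ETV5 rose from 36.1 to 58.4 CPM (adjusted p = 1.87e-04), the RAS pathway inhibitor SPRY4 from 67.9 to 112 CPM (adjusted p = 0.00107) and the ERK phosphatase DUSP6 from 147 to 272 CPM (adjusted p = 8.14e-06). EGR1, an immediate early gene, went the other way, with 5.92 and 6.46 CPM in general and 4.24 and 3.46 CPM in HHH in batch 1. In batch 2 it was at 14.9, 14.01 and 19.8 CPM in general and 6.22, 5.41 and 5.66 CPM in HHH (log2 fold change -1.19 ± 0.15, adjusted p = 2.88e-04). ETV1 (88.9 and 108 CPM, adjusted p = 0.0880, or 0.0396 with the replicate block) and SPRY1 (21.1 and 24.9 CPM, adjusted p = 0.115) did not pass.

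**Figure D5:**
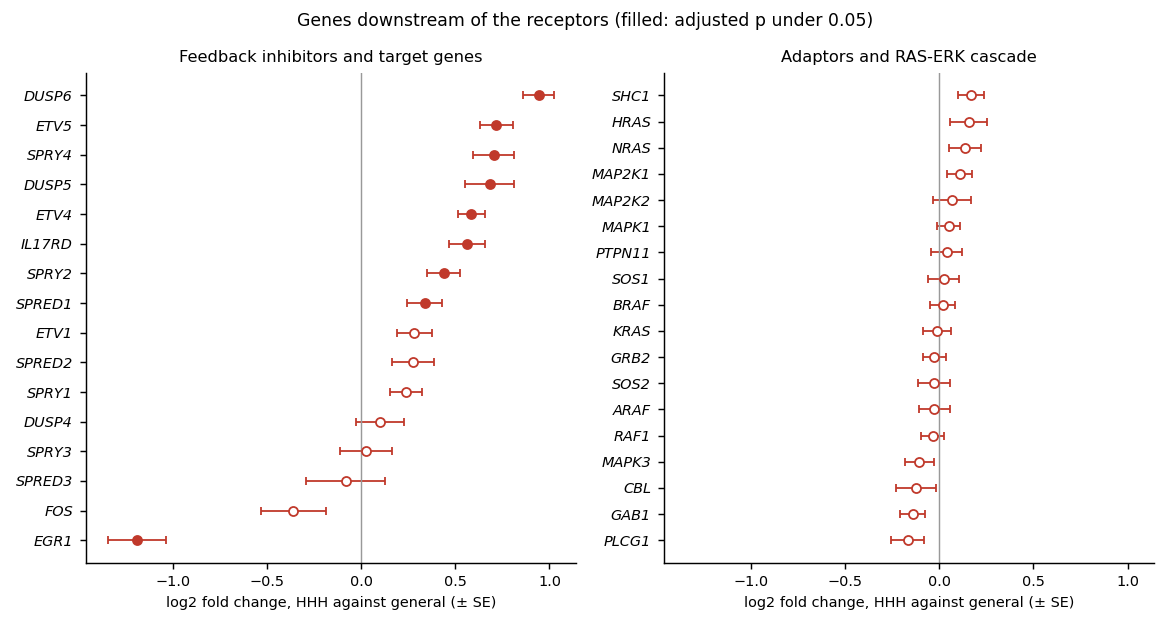
Log2 fold change of HHH against general (edgeR, bars ± 1 SE) for 16 feedback inhibitors and target genes on the left and 18 adaptors and kinases of the RAS and ERK cascade on the right, filled where the adjusted p was under 0.05. On the left 8 genes are higher and EGR1 is lower, and on the right no gene is filled and the values lie between -0.17 and 0.17.

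Markers of other cell types moved with these results to different degrees. The summed level of 10 neural markers was 4.96 to 13.3 CPM in general and 1.40 to 1.803 CPM in HHH. Of the 4 that could be tested, 2 (LHX5 and SOX1) were lower in HHH, where 3.89% of all tested genes were lower. PAX6 (edgeR adjusted p = 0.665) and POU3F2 (0.546) did not pass. LHX5 had enough counts to be tested only through its level in general, so its call gives no separate support. The call for SOX1 (adjusted p = 0.0391) held in 2 of 10 fits without a single library (highest adjusted p = 0.123, without HHH replicate 2 of batch 2). LHX5 made up most of the sum in general, at 6.82 CPM on average and 0.145 CPM in HHH, and EMX2 had no count in any HHH library. In general the neural sum was 4.96 to 7.82 CPM in batch 1 and 8.40 to 13.3 CPM in batch 2. In HHH it was 1.54 to 1.65 CPM in batch 1 and 1.40 to 1.803 CPM in batch 2. The sum of 9 markers of gastrulation and endoderm went in opposite directions: in batch 1 it was 1.73 to 2.31 CPM in general and 2.86 to 3.02 CPM in HHH, and in batch 2 it was 2.99 to 3.18 CPM in general and 1.96 to 2.37 CPM in HHH. For 8 markers of amnion and trophoblast the sum was 5.85 to 10.8 CPM in general and 3.503 to 5.71 CPM in HHH. For 6 fibroblast markers it was 131 to 150 CPM in general and 85.8 to 137 CPM in HHH, overlapping in batch 1, with DCN at no more than 1 count and LUM at no more than 4 counts in any library and COL1A1 lower in HHH (log2 fold change -0.94, edgeR adjusted p = 0.00334). The part of such cells in the changes of the FGF genes was not tested.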

How the data were processed

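Gene counts of 10 RNA-seq libraries were analysed. The counts were deposited by the authors without normalization, and per the labels the libraries were made with a TruSeq RNA kit and processed with CASAVA 1.8.2, R 3.2.2, limma 3.26.9 and GRCh37. The aligner, counter and annotation are not given in the sources used here. The authors also deposited a score per gene, the log2 RPKM after scaling and removal of a batch term (batch means differed by at most 9.2e-14 over 27641 genes), which was used only as an alternative and for implied gene lengths.

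Genes were matched by Ensembl identifier to GENCODE 44 (GRCh38), for 49395 of 55841 identifiers (88.5%). The unmatched identifiers, kept in library sizes and tests, held 7.44 to 20.3% of the counts. Counts were filtered with edgeR's filterByExpr (minimum count 10), scaled by TMM and tested by edgeR 4.0.16 (R 4.3.3) quasi-likelihood F tests, two-sided, with batch and population as terms, per batch, and with their interaction. Benjamini-Hochberg adjustment ran over all tested genes. The common biological coefficient of variation was 0.128. limma 3.58.1 and DESeq2 1.42.0 gave alternatives. Levels between libraries are CPM, and RPKM used the merged exon length. Libraries of 1 population and batch differed beyond sampling noise (chi-square over degrees of freedom 6.35 to 52.9), so none was merged.

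The 10 genes and all gene lists were chosen with earlier results of these data known. From the lists, up to 5 genes that passed with at least 1 CPM in either population (smallest adjusted p) and the 2 highest that did not pass were named. Same-numbered libraries of a batch deviated together (r = 0.113 in batch 1, where 2 libraries a population fix the size, and 0.113 to 0.239 in batch 2), so the replicate numbers were taken to pair the libraries, and a fit with them as a block was run. In batch 1 only the libraries numbered 2 form a pair. General replicate 1 and HHH replicate 3 of that batch added nothing to the population difference in the fit with the block. Alternatives covered scaling, filtering, the batch term, the block, GC content, gene length, other tools and leaving out each library. Those on GC content and implied length, and RLE scaling within batches, were chosen after seeing the data.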

Additional observations from a re-analysis of the deposited data

Results flagged for a closer look

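FGFRL1 moved in opposite directions in the batches. HHH was above general in every library of batch 1 and below it in every library of batch 2, and the log2 difference between the changes (batch 2 minus batch 1) was -0.85 ± 0.19. The interaction had an adjusted p of 0.0660 in edgeR and 0.00662 in DESeq2. With the trend with GC content removed from each library, the difference was -0.49 (edgeR adjusted p = 0.279). COL1A1, a fibroblast marker, had a log2 difference of -1.01 between the batches, from -0.34 in batch 1 to -1.35 in batch 2 (edgeR interaction adjusted p = 0.0315). The cause of either was not tested.

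No library stood apart from the other 4 of its population in any of the 28 groups of 5 libraries examined with Dixon's ratio (critical value 0.71). Each such group held libraries of both batches, so the gap between batches widened its range and a library apart within its own batch could be missed. The 2 or 3 libraries of a population within a batch are too few for the ratio.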

How the results depend on the processing

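The calls for FGF2, FGF13, FGFR2 and FGFR3 held in all 10 fits that left out 1 library. No call for the 10 FGF genes changed with the replicate block. The edgeR adjusted p was then 0.0350 for FGF2, 0.0231 for FGF19 and 0.0126 for FGFR1. In batch 1 the block fit compared the populations only in replicate 2, the number that both hold, so it rested mostly on batch 2. Of the 10 genes 2 passed without a batch term, 0 in batch 1 alone (1 there with RLE scaling and 1 with the GC trend removed), and 4 to 6 without 1 library. With library sizes left unscaled FGFR1 had an adjusted p of 0.0655. Over all genes 1373 passed, against 168 without a batch term, 2423 without a filter, 136 in batch 1 alone, 3166 in batch 2 alone, 2580 with the GC trend removed and the block, and 808 to 2347 without 1 library. With a 1.5-fold change also required, 701 passed, against 151 without a batch term, 1114 without a filter, 136 in batch 1 alone and 1178 in batch 2 alone. The split of higher and lower genes (458 and 915) became 248 and 817 without scaling, 838 and 999 with the GC trend removed, and 1299 and 1281 with the block as well. It became 55 and 1187 on the deposited log2 values, whose median change was -0.12, and relative to that median FGF13 was at 0.57, FGF19 at 0.47 and FGFR3 at -1.57.

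FGF4 changed sign with upper quartile scaling (-0.0096), without scaling (-0.048) and in batch 2 alone (-0.059), and ranged from -0.18 to 0.23 without 1 library. FGF8 was at -0.024 on the deposited values. FGFRL1 was at 0.42 in batch 1 alone and ranged from -0.20 to 0.028 without 1 library. With the longest transcript as length, the receptor share was 55.5% (general) and 55.7% (HHH) for FGFR1, 14.9% (general) for FGFR2, 9.93 and 4.77% for FGFR3, and 23.9% (HHH) for FGFR4. With implied lengths it was 22.1 and 23.4% for FGFR2, 14.2 and 6.93% for FGFR3, and 25.1% (HHH) for FGFR4. FGFR3 stayed lower in HHH under each length. Apart from lengths and construction, the cause of these changes was not tested. Low counts limit FGF4 and FGF8.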
